A study of Homo sapiens with 6 samples.

Results

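The UBE2 genes, which encode most human ubiquitin-conjugating (E2) enzymes, were chosen by their symbols, as all those named UBE2 followed by the letter and number of a family member. This rule gave 39 of the 61204 entries measured in RKO cells, a human colorectal cancer cell line. E2 enzymes are the middle step of ubiquitin transfer. An E1 enzyme activates ubiquitin, an E2 enzyme takes it over onto a cysteine, and an E3 ligase brings the loaded E2 to its substrate. The E2 often decides which lysine of ubiquitin a chain is built through, and some E2 enzymes carry ubiquitin-like proteins such as SUMO, NEDD8 or ISG15 in its place. In dividing cells a pair of them, UBE2C and UBE2S, build the chains with which the anaphase-promoting complex (APC/C) marks mitotic proteins for degradation.

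The RKO cells were transfected with an siRNA against ANP32B (siANP32B, 3 samples, labelled as ANP32B knockdown) or with a control siRNA (siCtrl, 3 samples, labelled as ANP32B wild type). Both groups were thus transfected, and the text of the study does not say which of its 2 ANP32B siRNA sequences went into the sequenced cells. The comparison asks which transcripts changed when ANP32B, a histone chaperone of the acidic nuclear phosphoprotein family, was silenced. Levels are given as FPKM, that is fragments per kilobase of gene length with each library scaled by its fragment total, so different genes can be set side by side. Separate cultures for the 3 samples of each group are stated neither in the labels nor in the methods. The p-values therefore speak only of sample-to-sample spread, part or all of which may be technical.

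ANP32B itself was at 72.46, 53.87 and 75.33 FPKM in siANP32B, against 429.3, 466.2 and 452.4 FPKM in siCtrl (log2 fold change -2.74, adjusted p = 9.37e-07 from limma). The totals behind the values were 14577044 to 16393123 fragments per sample in siANP32B and 14304093 to 18987041 in siCtrl. Pairs of siANP32B samples differed by a chi-square of 3.75 to 4.08 per gene. Counting noise alone would give about 1, and the value grows with depth where samples differ by more than that. The pair siCtrl 2 and 3 differed by 3.56, and siCtrl 1 differed from siCtrl 2 by 7.8 and from siCtrl 3 by 6.76. As siCtrl 1 also had the most fragments (18987041), the part of depth in its larger values was not tested. Calls are also given with siCtrl 1 as the only control. Of the 4 epithelial markers, KRT18 and KRT8 were present (means of 44.3 and 14.3 FPKM in siANP32B, 40.6 and 12.2 in siCtrl), as was EPCAM (14.3 in siANP32B and 17.2 in siCtrl), whereas CDH1 was near 0. The 7 markers of blood, fibroblasts and endothelium summed to 1.39 to 2.52 FPKM in siANP32B and to 3.51 to 4.86 in siCtrl, with PTPRC and CD3E at 0 and COL1A1 holding most of the sum. Their part in the results was not tested.

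Of the 39 genes, 31 had a mean of at least 1 FPKM and were tested. The other 8 were below it. UBE2DNL, UBE2E2, UBE2L2, UBE2QL1 and UBE2U were listed at 0 in all 6 samples, and UBE2L4, UBE2L5 and UBE2NL did not exceed 0.457 FPKM in any. A value of 0 in these files need not mean an absent transcript, since NEDD8 and the ubiquitin ligase gene RNF31, which cells generally use, were also listed at 0.

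The measured genes spanned means of 7.81 FPKM (UBE2V1) to 385 FPKM (UBE2D3), and 11 of them were above 100 FPKM in siCtrl. UBE2D3, UBE2S, UBE2C and UBE2M, the first 4 by level, held 39.8% of the summed FPKM of the family in siCtrl. Samples of a group lay close together, with a median coefficient of variation of 4.28% in siANP32B and 3.06% in siCtrl. The widest spreads were those of UBE2T in siANP32B (9.96%) and of UBE2V1 in siCtrl (15.7%), which had 124 to 210 fragments per siCtrl sample.

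**Figure D1:**
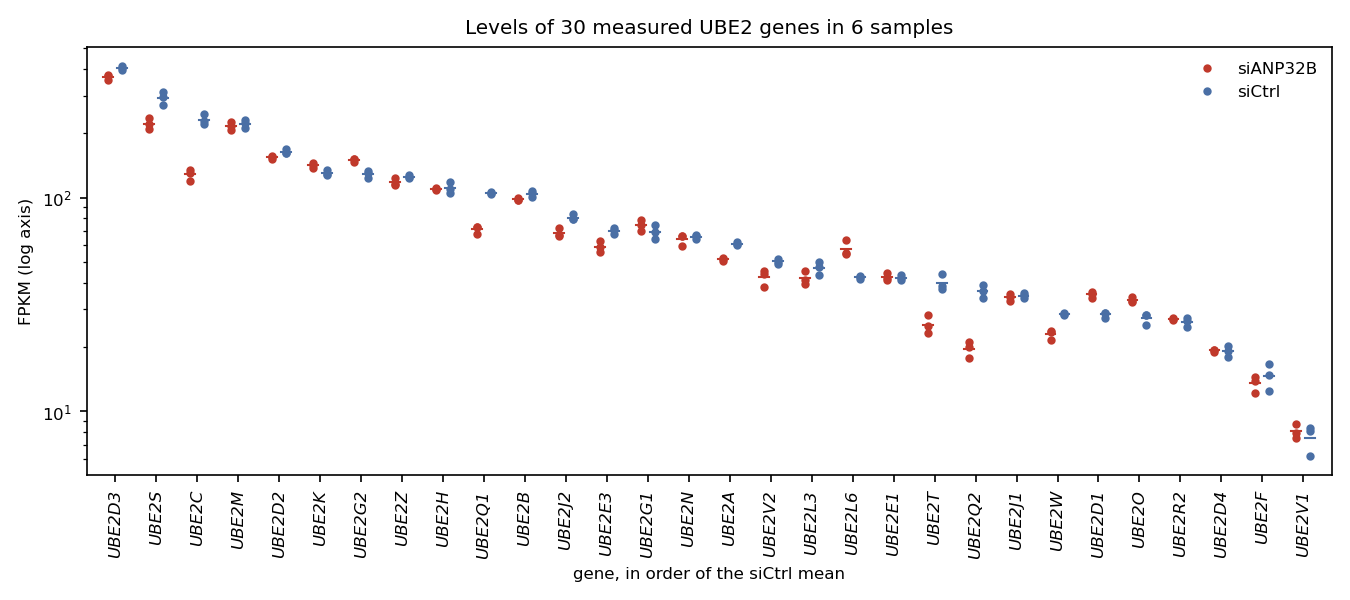
FPKM on a log axis of 30 measured UBE2 genes in each siANP32B sample (red) and each siCtrl sample (blue), with short lines at the group means and genes in order of the siCtrl mean. The means run from 385 FPKM over all samples for UBE2D3 to 7.81 for UBE2V1, and UBE2C, UBE2Q1, UBE2T and UBE2Q2 show the widest gaps between the groups.

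After ANP32B knockdown, 15 of the 31 measured UBE2 genes passed an adjusted p under 0.05 from limma, or 48.4%, against 39.2% of all 13945 genes tested. The 4 that rose, UBE2L6, UBE2D1, UBE2O and UBE2G2, made up 12.9% (14.6% of all genes). The 11 that fell made up 35.5% (24.6% of all genes). UBE2Q2, UBE2C, UBE2T and UBE2Q1 fell by more than 0.5 on the log2 scale, followed by UBE2S, UBE2W, UBE2E3, UBE2V2, UBE2A, UBE2J2 and UBE2D3, and no UBE2 gene changed by a log2 value of 1 or more. The siANP32B and siCtrl samples did not overlap in 19 of the 31 genes (61.3%, against 51.1% of all genes), among them the 15 called genes and UBE2B, UBE2D2 and UBE2K. The median log2 fold change was -0.085 over the 31 genes and -0.062 over all genes tested. All genes tested include pseudogenes and genes with means down to 1 FPKM, whereas the 31 are protein coding with means of at least 7.81 FPKM. The shares over all genes, here and below, are thus not of like genes. Among tested genes with an annotated 3′ UTR, 38.1% with and 27.5% without a seed match of siANP32B#1 (described below) were lower.

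The summed FPKM of the 31 genes was 2581, 2578 and 2593 in siANP32B, against 2832, 2873 and 2948 in siCtrl. That is 0.364, 0.36 and 0.363% of all FPKM in siANP32B and 0.412, 0.412 and 0.424% in siCtrl. The siANP32B samples were all below the siCtrl samples on both scales.

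With median-of-ratios scaling, which moved log2 fold changes by a median of 0.066, 5 UBE2 genes were higher and 9 lower, and 13 of the 15 calls held (over all genes, 2690 higher and 2577 lower, against 2031 and 3437 without it). The calls of UBE2V2 and UBE2D3 were lost and UBE2K became higher. With siCtrl 1 as the only control, 1 gene was higher and 6 were lower, and all 15 called genes kept their direction. The 7 called then, UBE2Q2, UBE2C, UBE2T, UBE2Q1, UBE2S, UBE2J2 and UBE2L6, are also the 7 called under each of the 15 alternative fits.

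**Figure D2:**
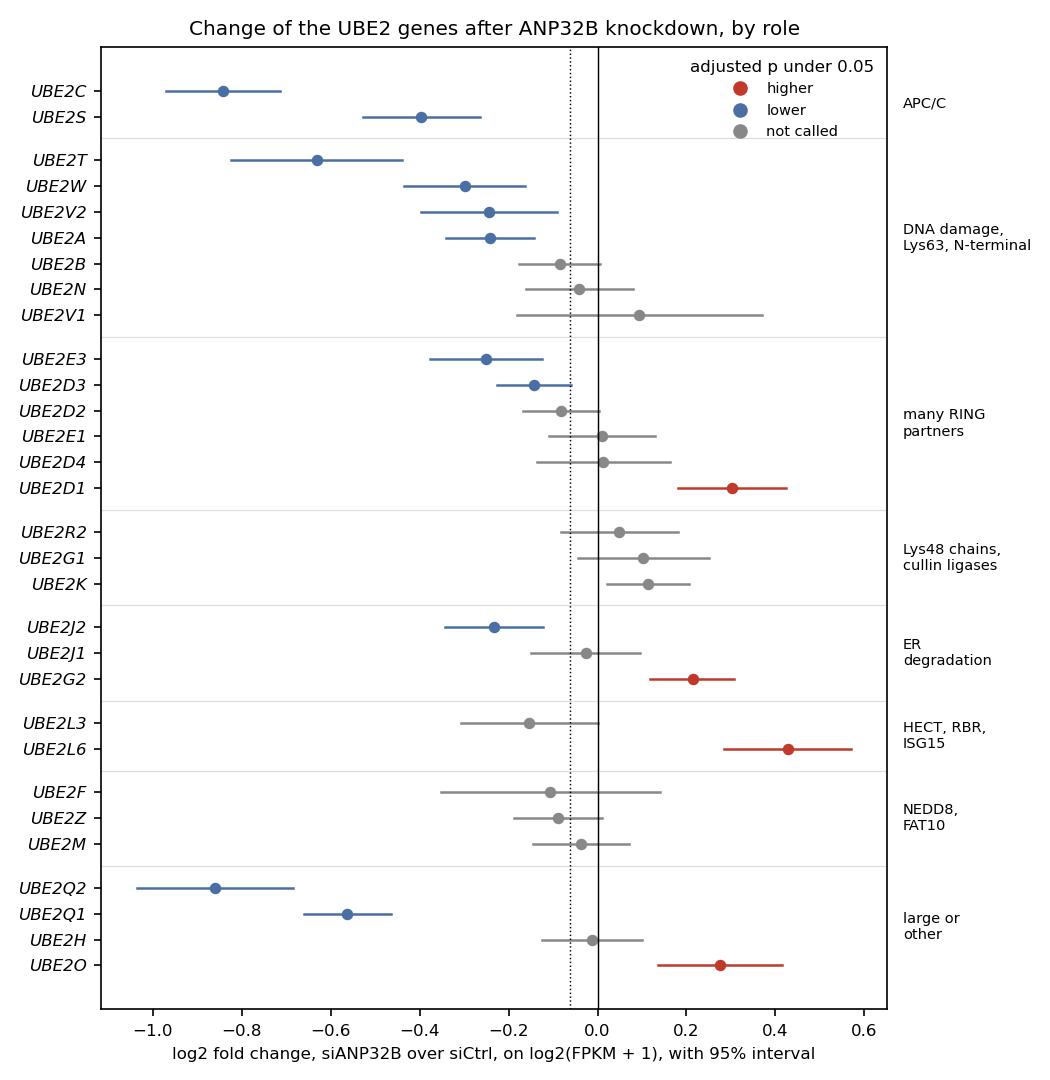
Log2 fold change, siANP32B over siCtrl, of 30 UBE2 genes on log2(FPKM + 1) with its 95% interval from limma, grouped by role; red marks genes called higher, blue lower and grey not called, and the dotted line is the median of all genes tested (-0.062). Both enzymes grouped under the APC/C and 4 of the 7 enzymes of DNA damage, Lys63 chains and N-terminal transfer are blue. Those grouped under Lys48 chains and cullin ligases and those of NEDD8 and FAT10 are grey.

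Both E2 enzymes grouped here under the APC/C, UBE2C and UBE2S, fell, against 24.6% of all genes. The pair is not a full list of the E2 enzymes that can work with the APC/C. UBE2C (chr20:45812576-45816957, forward strand, GRCh38), which starts ubiquitin chains on APC/C substrates, was at 134.8, 119.5 and 130.7 FPKM in siANP32B, against 220.3, 227.4 and 244.8 FPKM in siCtrl. It fell by 44.4% (log2 fold change -0.84, standard error 0.06, adjusted p = 1.08e-05). UBE2S (chr19:55399745-55407777, reverse strand), which lengthens those chains through Lys11 of ubiquitin, was at 221.1, 209.4 and 235.4 FPKM in siANP32B, against 272.2, 294.8 and 310.3 FPKM in siCtrl. It fell by 24.1% (log2 fold change -0.40, standard error 0.06, adjusted p = 0.000718). The groups did not overlap for either gene, and siCtrl 1 was the lowest control for both. The log2 fold change with siCtrl 1 alone was -0.78 for UBE2C and -0.30 for UBE2S. UBE2S overlaps RPL28 on the opposite strand, which averaged 454 FPKM in siANP32B and 345.5 FPKM in siCtrl. The sources used here do not say whether reads were assigned by strand. In bulk RNA, fewer cells that express these genes and less of their RNA per cell cannot be told apart.

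Of the 16 subunits and activators of the APC/C itself, 2 were higher (12.5%, against 14.6% of all genes), 5 lower (31.2%, against 24.6%) and 9 not called, with a median log2 fold change of -0.03. The falls of CDC20, the mitotic activator that recruits substrates, and of the scaffold subunit CDC23 (-0.86 and -0.84) were close in value to that of UBE2C. ANAPC16 (-0.52) and ANAPC11 (-0.35), the RING subunit that binds the E2, also fell. The remaining calls, a lower CDC26 and higher ANAPC13 and CDC27, were named after their values were seen, and that of CDC27 was lost with siCtrl 1 as the only control (adjusted p = 0.103).

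Among the 7 measured E2 enzymes of DNA damage signalling, Lys63 chains and N-terminal ubiquitin transfer, 4 fell (57.1%, against 24.6% of all genes) and 3 were not called, with a median log2 fold change of -0.24. UBE2T (chr1:202331657-202341980, reverse strand), which with the ligase FANCL adds ubiquitin to FANCD2 in the Fanconi anemia pathway, was at 25.08, 23.18 and 28.21 FPKM in siANP32B, against 38.61, 37.47 and 43.97 FPKM in siCtrl. It fell by 36.3% (log2 fold change -0.63, standard error 0.09, adjusted p = 0.000443). UBE2W, which modifies the amino terminus of proteins, was at 23.86, 23.56 and 21.57 FPKM in siANP32B, against 28.14, 28.57 and 28.78 FPKM in siCtrl (adjusted p = 0.00405). Neither gene's groups overlapped.

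UBE2A and UBE2B are the human forms of yeast Rad6 and work with RAD18 on PCNA and with RNF20 and RNF40 on histone H2B. UBE2A was at 51.8, 50.27 and 52.14 FPKM in siANP32B, against 60.57, 60.18 and 62.09 FPKM in siCtrl, and fell by 15.7% (adjusted p = 0.00231). UBE2B averaged 98.1 ± 1.26 FPKM in siANP32B and 104 ± 3.07 FPKM in siCtrl (S.D., n = 3 each) and was not called (adjusted p = 0.128). UBE2N, the catalytic partner in Lys63 chain synthesis, averaged 63.9 ± 3.86 FPKM in siANP32B and 65.7 ± 1.254 FPKM in siCtrl (adjusted p = 0.58). Of its inactive partners, UBE2V2 fell (log2 fold change -0.24, adjusted p = 0.0191), and UBE2V1 had a log2 fold change of 0.09 (adjusted p = 0.578). The call of UBE2V2 was lost with median-of-ratios scaling (adjusted p = 0.0744), without siCtrl 1 (0.0625) and in 4 other alternatives. UBE2V1 was negative without siCtrl 3 (-0.03) and with siCtrl 1 alone (-0.05).

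Of 12 measured E3 partners of these enzymes, 5 were lower (41.7%, against 24.6% of all genes) and none higher (14.6% of all genes), with a median log2 fold change of -0.15. BRCA1 (-0.86) and its partner BARD1 (-0.72), which with an E2 modify histone H2A, RNF20 (-0.52) and RAD18 (-0.49) fell, and so did FANCL, the ligase of UBE2T, which was named after its values were seen. RNF40, RNF8, RNF168, UBR1, UBR2, SHPRH and TRAF6 were not called.

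**Figure D3:**
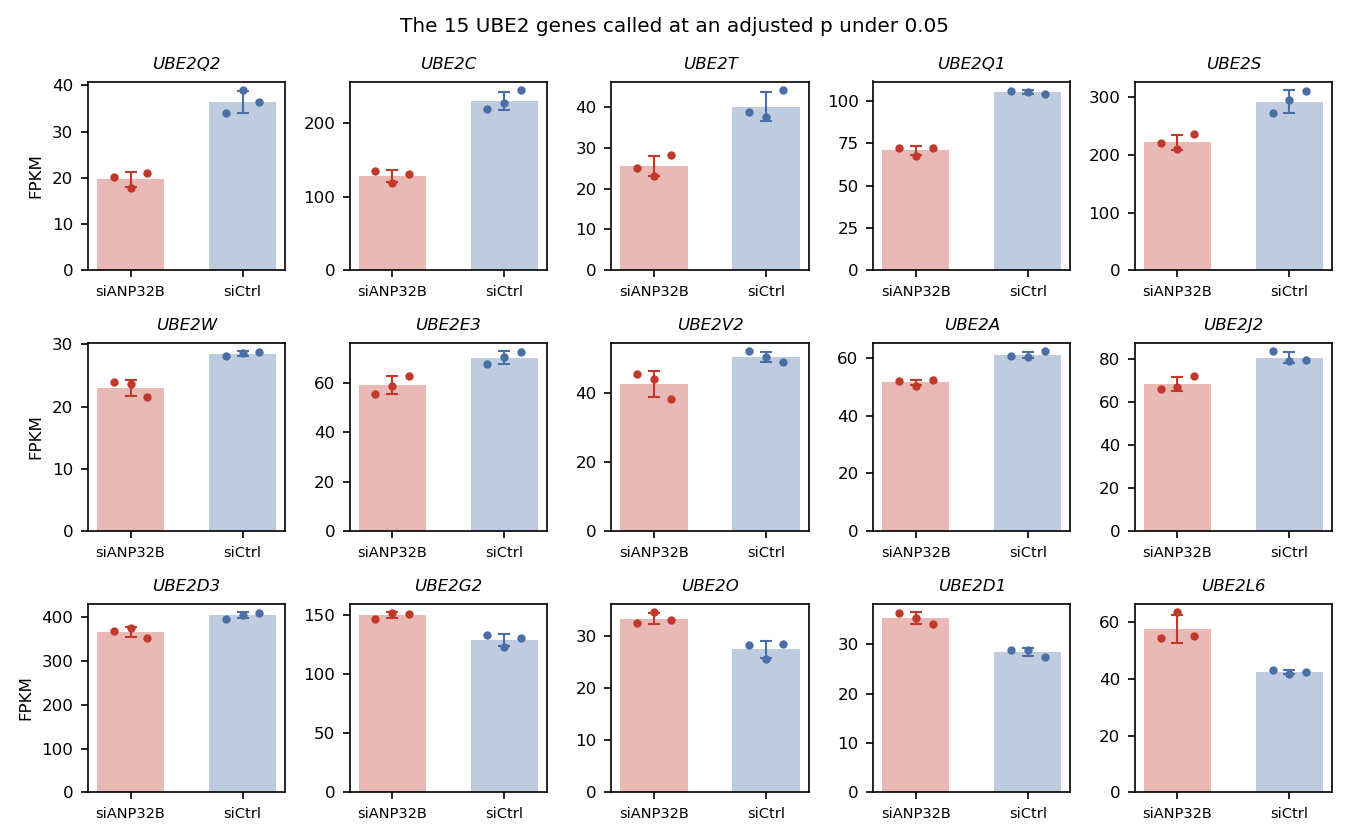
FPKM of the 15 called UBE2 genes in each siANP32B sample (red) and each siCtrl sample (blue); bars show means, starting at 0, and error bars the S.D. of 3 samples. In each panel the samples of the groups do not overlap, from UBE2Q2 (log2 fold change -0.86) at the upper left to UBE2L6 (0.43) at the lower right.

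UBE2Q1 and UBE2Q2 encode E2 enzymes with a long amino-terminal extension before the catalytic domain. UBE2Q2 (chr15:75843285-75901078, forward strand) was at 20.1, 17.79 and 21.07 FPKM in siANP32B, against 34.07, 38.88 and 36.43 FPKM in siCtrl. Its fall of 46.1% was the largest of the family (log2 fold change -0.86, standard error 0.08, adjusted p = 4.92e-05), although its 95% interval of -1.04 to -0.69 includes the value of UBE2C. UBE2Q1 (chr1:154548577-154559028, reverse strand) was at 72.51, 67.87 and 72.55 FPKM in siANP32B, against 106.1, 105.5 and 104.1 FPKM in siCtrl (log2 fold change -0.56, standard error 0.04, adjusted p = 2.24e-05). Both kept their calls under all 15 alternatives. Of the pseudogenes of UBE2Q2, with which it may share reads, UBE2Q2P1 and UBE2Q2P2 reached 1 FPKM, with means of 3.24 and 3.87 FPKM in siANP32B and 2.96 and 4.01 in siCtrl.

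In the same group of large or other enzymes, UBE2O rose and UBE2H was not called. UBE2O, which joins E2 and E3 activity in a single protein and marks unassembled ribosomal proteins, was at 32.49, 34.46 and 32.96 FPKM in siANP32B, against 28.3, 25.48 and 28.36 FPKM in siCtrl (log2 fold change 0.28, standard error 0.06, adjusted p = 0.00701). With siCtrl 1 alone its adjusted p was 0.0923. UBE2H, the E2 of the CTLH ligase, averaged 110.0 ± 1.28 FPKM in siANP32B and 111 ± 6.87 FPKM in siCtrl (adjusted p = 0.874).

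The UBE2D and UBE2E enzymes pair with many RING-type ligases. Of the 6 measured, 2 fell (33.3%, against 24.6% of all genes), 1 rose (16.7%, against 14.6%) and 3 were not called, which is near the shares over all genes. UBE2D3, the most abundant E2 transcript, was at 369.2, 375.5 and 353.4 FPKM in siANP32B, against 396.8, 404.7 and 410.4 FPKM in siCtrl (log2 fold change -0.14, adjusted p = 0.0137). This call was lost with median-of-ratios scaling (adjusted p = 0.201) and also without siANP32B 3 (0.0506) or without siCtrl 3 (0.0584). UBE2D1 moved the other way, at 36.35, 35.32 and 34.08 FPKM in siANP32B, against 28.84, 28.89 and 27.48 FPKM in siCtrl (log2 fold change 0.30, standard error 0.05, adjusted p = 0.00215). UBE2E3 was at 55.38, 58.48 and 62.61 FPKM in siANP32B, against 67.54, 70.33 and 72.36 FPKM in siCtrl (log2 fold change -0.25, adjusted p = 0.00673). UBE2D2 (-0.08, adjusted p = 0.119), UBE2D4 (0.01, adjusted p = 0.894) and UBE2E1 (0.01, adjusted p = 0.898) were not called.

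None of the 3 E2 enzymes grouped here under Lys48 chains, the usual signal for the proteasome, and cullin ligases was called, against 39.2% of all genes. A group of 3 is too small to be set against that share. The group is not a full list of the E2 enzymes that can build such chains. UBE2K was at 142.1, 145.3 and 137.1 FPKM in siANP32B, against 129.6, 134.4 and 128.1 FPKM in siCtrl, with groups that did not overlap and an adjusted p of 0.0526. It was called in 7 of 15 alternatives, among them median-of-ratios scaling (log2 fold change 0.18, adjusted p = 0.0112 from limma). UBE2G1 and UBE2R2, which extend chains on substrates of cullin ligases, had log2 fold changes of 0.10 (95% interval -0.045 to 0.251) and 0.05 (95% interval -0.082 to 0.18). Of 18 core genes of the cullin ligases, 2 were higher (11.1%, against 14.6% of all genes) and 7 lower (38.9%, against 24.6%). The falls of ELOC (-0.65), CUL4B (-0.61), DCUN1D1 (-0.43) and CUL2 (-0.41) had the smallest p-values, and CUL3 and RNF7, named after their values were seen, were higher, RNF7 in 10 of 15 alternatives.

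The 3 E2 enzymes of endoplasmic reticulum-associated degradation, by which misfolded proteins of the secretory pathway are removed, went different ways. UBE2J2, which is anchored in the membrane, was at 66.24, 67.21 and 72.18 FPKM in siANP32B, against 83.53, 79.15 and 79.35 FPKM in siCtrl (log2 fold change -0.23, standard error 0.05, adjusted p = 0.00517). UBE2G2, a soluble enzyme, was at 146.9, 151.5 and 150.9 FPKM in siANP32B, against 133.1, 123.4 and 130.7 FPKM in siCtrl (log2 fold change 0.21, standard error 0.04, adjusted p = 0.00344). UBE2J1 was not called (-0.03, adjusted p = 0.731). Of 9 E3 partners and cofactors, 3 were lower (33.3%, against 24.6% of all genes) and 1 higher (11.1%, against 14.6%). RNF139 (-0.996) and SEL1L (-0.36) were among those that fell, while AUP1, which recruits UBE2G2 to the membrane, rose (0.39).

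UBE2L6, the E2 that transfers the interferon-induced modifier ISG15, showed the largest rise. It was at 54.57, 63.43 and 55.09 FPKM in siANP32B, against 43.19, 41.84 and 42.55 FPKM in siCtrl (log2 fold change 0.43, standard error 0.06, adjusted p = 0.000744). Every siANP32B sample was above every siCtrl sample, and the call held under all 15 alternatives. ISG15 averaged 73.2 FPKM in siANP32B and 64.4 FPKM in siCtrl and was not called (adjusted p = 0.0933), and its E1 enzyme, UBA7, was low, at 0.704 FPKM in siANP32B and 1.77 FPKM in siCtrl. UBE2L3, the paralog that serves HECT and RBR ligases, had a log2 fold change of -0.15 (95% interval -0.308 to 0.002, adjusted p = 0.108). Of 23 measured ligases of those families, 7 were lower (30.4%, against 24.6% of all genes) and none higher (14.6% of all genes), led by SMURF2 (-0.68), UBE3B (-0.60), RBCK1 (-0.52) and RNF19A (-0.29).

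The E2 enzymes of NEDD8 and FAT10 were not called, whereas 39.2% of all genes were. So few genes cannot be set against that share. UBE2M, the main NEDD8 E2, averaged 216 ± 9.23 FPKM in siANP32B and 222 ± 10.3 FPKM in siCtrl (S.D., n = 3 each, adjusted p = 0.568 from limma). UBE2Z, which takes up FAT10 and ubiquitin from UBA6, had a log2 fold change of -0.09 (adjusted p = 0.142), and UBE2F, the other NEDD8 E2, of -0.11 (adjusted p = 0.481). A processed pseudogene of UBE2F, UBE2FP1, was listed at a mean of 13.5 FPKM in siANP32B and 16.4 FPKM in siCtrl, close to UBE2F itself (13.5 in siANP32B and 14.7 in siCtrl), so reads of the 2 may be shared. Of 12 SUMO ligases and proteases, 7 were lower (58.3%, against 24.6% of all genes), with PIAS1 (-0.52), SENP7 (-0.38), PIAS3 (-0.35) and PIAS4 (-0.17) named by p. Only 1, SENP6, was higher (8.33%, against 14.6% of all genes). SENP6 was called in 6 of 15 alternatives and PIAS4 in 11, PIAS4 not with median-of-ratios scaling (adjusted p = 0.124), and with siCtrl 1 alone only PIAS1 of the 5 kept its call.

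FPKM is per length, so the share of each paralog in the summed FPKM of its set could be compared between the groups. In 8 of 11 shares the groups did not overlap, while for single genes this held in 51.1% of all tested. Each of these 8 shares is of a set that holds a UBE2 gene called above, so the shares are not separate evidence. UBE2L3 held 42.1 ± 2.88% of the sum of UBE2L3 and UBE2L6 in siANP32B and 52.3 ± 2.12% in siCtrl (S.D., n = 3 each). UBE2E1 held 42.0 ± 2.50% of the sum with UBE2E3 in siANP32B and 37.6 ± 0.199% in siCtrl, and UBE2Q1 78.3 ± 0.871% of the sum with UBE2Q2 in siANP32B and 74.3 ± 1.32% in siCtrl. UBE2D1 held 6.13 ± 0.153% of the UBE2D sum in siANP32B and 4.62 ± 0.166% in siCtrl, and UBE2D3 63.7 ± 0.656% in siANP32B and 65.7 ± 0.565% in siCtrl. The shares of UBE2A, UBE2J1 and UBE2V1 in their pairs differed by -2.54, 3.13 and 3.05 percentage points (siANP32B minus siCtrl), and those of UBE2D2, UBE2D4 and UBE2F overlapped between the groups. For the 8 shares the exact two-sided permutation test gave p = 0.1, the smallest that 3 samples against 3 allow, or 0.138 after adjustment over the 11, so this test cannot pass 0.05 here, and no other was run on the shares.

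Upstream of the E2 step, some genes of ubiquitin and of ubiquitin-like proteins rose and several E1 genes fell. Of the genes that encode ubiquitin, UBB rose by a log2 value of 0.67 and RPS27A, a fusion to a ribosomal protein, by 0.28. Of 8 measured ubiquitin-like genes, 4 were higher (50%, against 14.6% of all genes) and 1 lower (12.5%, against 24.6%). FAU (0.57), which encodes another ribosomal fusion, UBL5 (0.44) and UFM1 (0.33) rose. SUMO2, named after its values were seen, also rose, while SUMO3 fell (-0.26). With siCtrl 1 alone the calls of UBB (adjusted p = 0.0741), SUMO2 (0.0932) and SUMO3 (0.172) were lost, and that of SUMO3 also with median-of-ratios scaling (0.0506). Of 15 alternatives, UBB was called in 14, SUMO3 in 12 and SUMO2 in 9.

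Of 10 E1 genes, 5 were lower (50%, against 24.6% of all genes) and none higher (14.6% of all genes), with a median log2 fold change of -0.17. UBA6, which loads UBE2Z, had the smallest p (-0.55, adjusted p = 0.000158), and UBA3 of NEDD8 (-0.28) and SAE1 of SUMO (-0.16) also fell, as did UBA7, named after its values were seen. UBA1, the main ubiquitin E1, averaged 255 FPKM in siANP32B and 265 FPKM in siCtrl (adjusted p = 0.217). Among 8 genes of E2 fold outside the UBE2 symbols, AKTIP (-0.59), ATG10 (-0.59) and UEVLD (-0.21) were lower (37.5%, against 24.6% of all genes). None was higher (14.6% of all genes). CDC34, the cullin E2 related to UBE2R2, averaged 112 FPKM in siANP32B and 113 FPKM in siCtrl. Several of these calls depended on the processing. UBA3 was called in 10 of 15 alternatives, SAE1 in 5 and UEVLD in 4, and ATG10 was called in 4 and UBA7 in 2 of 14. With median-of-ratios scaling the adjusted p was 0.213 for SAE1 and 0.0613 for UBA7.

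**Figure D4:**
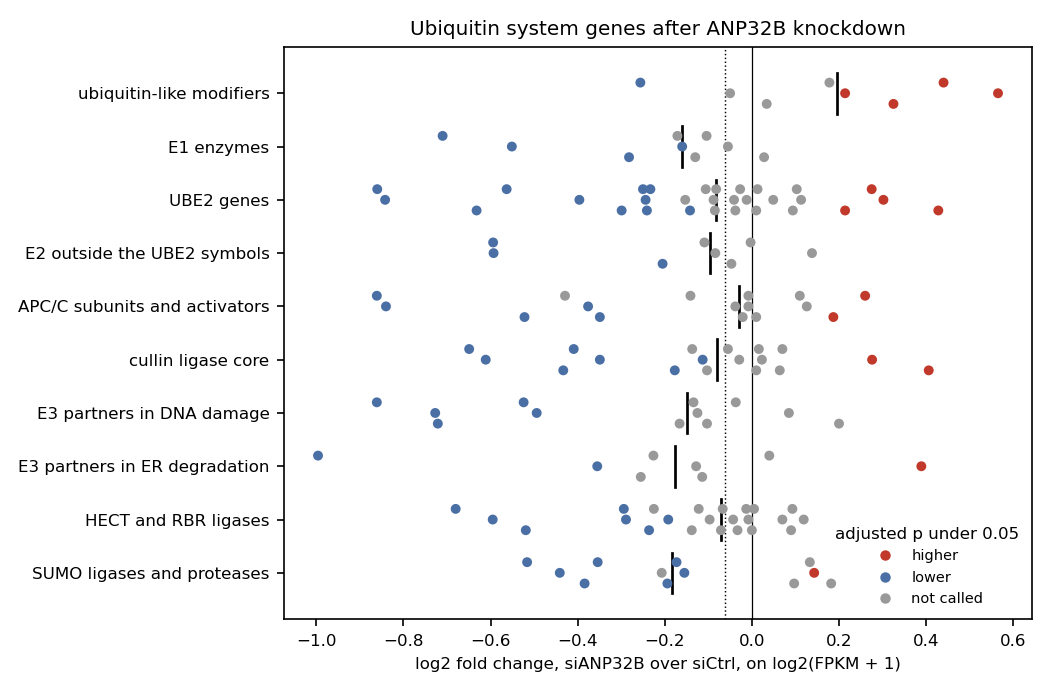
Log2 fold change, siANP32B over siCtrl, of measured genes of lists of the ubiquitin system. The genes that encode ubiquitin, such as UBB and RPS27A, are not drawn. Each point is a gene, red called higher, blue lower, grey not called. A short black line lies at the median of the points and a dotted line at the median of all genes tested (-0.062). UBL5 and FAU lie to the right (0.44 and 0.57), while UBA6 (-0.55), BRCA1 (-0.86), SMURF2 (-0.68) and RNF139 (-0.996) lie to the left.

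The promoters of UBE2T and UBE2S are shown because both genes fell and belong to the cell division and DNA damage groups, whose promoters often carry a CHR element (TTTGAA) and CCAAT boxes, the binding site of NF-Y. The choice was thus made by outcome. UBE2C and UBE2Q1 are among the 7 measured UBE2 genes without a window. The windows come from RefSeq on GRCh38.p14 and span 250 bases before to 50 bases after the annotated start, written 5′ to 3′ on the strand of the gene. Capitals mark TTTGAA and CCAAT on either strand and CCAAT appears as ATTGG where it lies on the other strand.
UBE2T, chr1:202341887-202342186, reverse strand: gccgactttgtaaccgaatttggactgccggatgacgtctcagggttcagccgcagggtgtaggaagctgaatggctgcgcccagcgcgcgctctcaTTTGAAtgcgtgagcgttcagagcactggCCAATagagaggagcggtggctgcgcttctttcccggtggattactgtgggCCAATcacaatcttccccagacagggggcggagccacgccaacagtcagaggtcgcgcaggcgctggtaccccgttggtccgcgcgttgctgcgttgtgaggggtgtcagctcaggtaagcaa
UBE2S, chr19:55407739-55408038, reverse strand: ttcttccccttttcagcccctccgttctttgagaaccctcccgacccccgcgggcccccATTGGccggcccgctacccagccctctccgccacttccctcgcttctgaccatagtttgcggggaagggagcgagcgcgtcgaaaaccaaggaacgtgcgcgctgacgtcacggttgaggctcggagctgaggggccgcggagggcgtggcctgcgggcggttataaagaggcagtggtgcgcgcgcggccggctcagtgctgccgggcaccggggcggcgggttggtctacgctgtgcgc
UBE2T had TTTGAA 153 bases before the start and CCAAT at 124 and 73 bases before it, and UBE2S had CCAAT at 191 bases before its start. TTTGAA was in a window of 2 of the 24 measured UBE2 genes, out of 31, that had one, UBE2T and UBE2F, of which UBE2F was not called. It was in 15.2% of all 35116 windows, a share per window, whereas the UBE2 genes are counted by gene and a gene can have several windows. By gene, TTTGAA was in 1249 tested genes, of which 35.7% were lower, and absent from 8162, of which 26.7% were lower. CCAAT was in 8 of the 24, UBE2D2, UBE2D3, UBE2E1, UBE2E3, UBE2F, UBE2S, UBE2T and UBE2Z. It was in 34.6% of all windows, again a share per window. By gene, CCAAT was in 4085 tested genes and absent from 5326. Of these 8, 4 fell, none rose and 4 were not called, and over 4085 tested genes with CCAAT in the window 30.2% were lower, against 26.2% of the 5326 without it. The core of interferon response elements (GAAA, any 2 bases, GAAA) was found for UBE2D3 and not for UBE2L6. It was in 3.6% of all windows and, by gene, in 367 tested genes and absent from 9044. A match is a string in a window, and its use in these cells was not measured.

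An siRNA can also lower transcripts that match bases 2 to 8 of its guide strand, the seed. The complement of the seed is GATGGCT for siANP32B#1 and CTGAATT for siANP32B#2, taking the strand opposite to the stated sense sequence as guide. The sites for siANP32B#1 in UBE2 transcripts are shown because they fall in several of the genes that were lower. They are read from GENCODE 29 transcripts (GRCh38), with the seed match in capitals.
UBE2Q1, 3′ UTR: tgcaggacaatGATGGCTattctaaacgc
UBE2E3, 3′ UTR: aagtagctgtaGATGGCTaggaattatgt
UBE2H, 3′ UTR: cctcccgttggGATGGCTgagaatcatga
UBE2Q2, coding sequence: gaagaagaagaGATGGCTgaagatataga
UBE2Q2, end of coding sequence: ctccaaaggaaGATGGCTaa
UBE2O, coding sequence: aggagacgcccGATGGCTctgccagtcca
UBE2O, coding sequence: tgatgtggcagGATGGCTccgtggaatgc
With UBE2W, 4 UBE2 genes had GATGGCT in the 3′ UTR, of which UBE2Q1, UBE2E3 and UBE2W fell and UBE2H was not called. Over 11032 genes tested with an annotated 3′ UTR, 1369 had the site in any coding transcript (12.4%), and 38.1% of them were lower, against 27.5% of the 9663 without it. In the coding sequence the site was in UBE2Q2, which fell, and in UBE2O, which rose, and in 16.8% of all these genes, of which 37.8% were lower, against 27.0% of those without it. CTGAATT was in the 3′ UTR of 11 UBE2 genes, of which 3 fell (27.3%), 1 rose and 7 were not called, whereas 8 of the 20 measured without it fell (40.0%). It was in 20.4% of all genes, of which 788 of 2251 were lower, against 2393 of 8781 without it (27.3%). UBE2C, UBE2T and UBE2S had neither site in the 3′ UTR or the coding sequence. The part of seed matches in these changes was not tested.

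Other genes share sequence or position with UBE2 members, which limits single values. Besides RPL28, NKRF overlaps UBE2A and NUDT4 overlaps UBE2N on the opposite strand, with means of 7.67 and 20.6 FPKM in siANP32B and 9.46 and 26.0 FPKM in siCtrl. On the same strand, the protein-coding entry PEDS1-UBE2V1 overlaps UBE2V1 and averaged 0 FPKM in both groups. A 0 in these files need not mean absence, and its bearing on the values of UBE2V1 was not tested. Of 54 other entries with a UBE2 symbol, mostly pseudogenes, 26 were above 0 in any sample and 9 had a mean of at least 1 FPKM.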

How the data were processed

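RKO cells transfected with siANP32B (3 samples) or siCtrl (3 samples) were compared, with groups and replicate numbers from the sample titles. The deposited values are FPKM made by the authors, 1 file per sample; their processing notes list the tools Bowtie2, RSEM and DESeq2 and the build GRCh38, without versions. For annotation release, gene length definition and strand use, nothing is given in the sources used here. The methods of the study give TRIzol and Illumina paired-end sequencing, whereas the labels name a Tiangen kit and an MGI library kit. The files do not name the unit: all 17961 genes above 0 in all 6 samples came out as whole fragments within 0.01, of which 3181 at the GENCODE 29 length, so a single gene's fragments can be understated by a whole-number factor. The totals were 14304093 to 18987041 fragments per sample. Of 60671 Ensembl IDs, 58453 were in GENCODE 29, the source of coordinates; 533 entries had no ID.

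limma 3.58.1 in R 4.3.3 was run on log2(FPKM + 1) for 13945 genes whose mean reached 1 FPKM, with a trend of variance on the mean and no block, and p-values were adjusted over all of them by the Benjamini-Hochberg method at 0.05. Fold changes on this scale understate those of low genes. The fit was tested on simulated data. Tables and figures used Python 3.11.15, numpy 2.4.6, pandas 2.3.3 and matplotlib 3.10.9. The measured UBE2 genes were named; of the other lists, up to 4 called genes with the smallest p. The UBE2 genes and all lists were chosen with earlier results of these data known. Alternatives were a pseudocount of 0.1, no filter, a minimum of 5 FPKM, an adjusted p under 0.01, median-of-ratios and upper-quartile scaling, limma-voom on the fragments, each sample left out, siCtrl 1 as the only control and the replicate number as a block. A fit with no variance trend was added after seeing the data. RefSeq protein sequences were not used here, and some genes are not reported here.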

Additional observations from a re-analysis of the deposited data

How the results depend on the processing

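Of 465 refitted log2 fold changes of the 31 UBE2 genes (15 alternatives each), 418 kept their direction and side of the threshold, 18 lost a call, 10 gained 1 and 19 changed sign, the last in 7 genes that were not called. Over all genes, siCtrl 1 as the only control, assumed to vary like the siANP32B samples, gave 1209 higher and 1899 lower genes, against 2031 and 3437 with all controls, and 1 higher and 6 lower UBE2 genes, against 4 and 11. An adjusted p under 0.01 gave 1267 higher and 2165 lower genes. Median-of-ratios scaling gave 2690 higher and 2577 lower genes (51.1% higher, against 37.1%) and upper-quartile scaling 2752 and 2539 (52.0%); each gave 5 higher and 9 lower UBE2 genes. Without the variance trend, added after seeing the data, 4 UBE2 genes were higher and 9 lower, with UBE2V2 and UBE2D3 no longer called.

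Leaving out each sample gave 4 to 5 higher and 10 to 11 lower UBE2 genes, and 1667 to 1755 higher and 2755 to 3052 lower genes over all. Samples with the same replicate number did not deviate together (correlations of 0.021, -0.006 and -0.003), so no shared effect of the number was seen. These values cannot tell whether samples of equal number were processed together. With the replicate block 5 UBE2 genes were higher and 11 lower, and 2006 and 3310 over all genes.

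Signs of small, uncalled changes turned. With median-of-ratios and upper-quartile scaling the log2 fold changes were 0.058 and 0.062 for UBE2H, 0.041 and 0.045 for UBE2J1, 0.032 and 0.036 for UBE2M, and 0.028 and 0.032 for UBE2N. With siCtrl 1 alone they were 0.008 for UBE2H, 0.015 for UBE2J1, 0.036 for UBE2M and -0.051 for UBE2V1. Leaving out 1 sample at a time gave ranges of -0.027 (without siCtrl 1) to 0.052 for UBE2D4, -0.023 (without siANP32B 1) to 0.035 for UBE2E1, with -0.009 without siCtrl 1, -0.05 to 0.036 (without siCtrl 3) for UBE2H, -0.056 to 0.002 (without siANP32B 3) for UBE2J1, -0.067 to 0.009 (without siANP32B 3) for UBE2N, and -0.025 (without siCtrl 3) to 0.167 for UBE2V1. The cause was not tested. The measured UBE2 genes had 124 to 9396 fragments per sample, fewest in UBE2V1, and 3 samples a group cannot give an exact permutation p below 0.1.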
